A study of Rattus norvegicus with 12 samples.

Results

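The genes described here carry out mitochondrial and peroxisomal fatty acid oxidation, from the activation of fatty acids to the release of acetyl-CoA. They are a list of 32 symbols fixed by name, and the row of each symbol was looked up in the expression table. A row was found for 31 of the 32, out of 17104 genes with a number in every sample. Eci2, a second mitochondrial enoyl-CoA isomerase, had no row under that symbol and was not analysed here. All 31 genes passed the filter on low values, 1 TPM or more in 4 or more of the 12 samples, which 10526 genes passed.

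Long-chain fatty acids are activated by acyl-CoA synthetases, passed through the inner mitochondrial membrane as carnitine esters, and shortened by repeated rounds of dehydrogenation, hydration, a further dehydrogenation and thiolysis. Unsaturated fatty acids need extra isomerases and a reductase, electrons leave the first dehydrogenation through electron transfer flavoprotein, and malonyl-CoA brakes entry at carnitine palmitoyltransferase 1. The heart draws most of its ATP from this pathway, while peroxisomes shorten very long and branched fatty acids.

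The study asked whether nicotinamide (NAM), a precursor of NAD+, alters the hearts of ZSF1 rats, a strain used as a model of heart failure with preserved ejection fraction. RNA of cardiac muscle was sequenced in 12 samples: 4 of lean animals, 4 of obese animals and 4 of obese animals given 24 mM NAM in their drinking water between weeks 8 and 20 of age. The labels call both obese groups diet-induced but name no diet or allele, and the ages of the lean and the untreated obese rats, the sex and the part of the heart were not stated there. Nothing in the labels says that the samples came from separate animals, so the p-values measure no more than the spread among these samples, which may be technical. NAM-treated below always means obese and treated, so that group shares its obesity with the untreated obese group.

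Expression is given in TPM, a length-corrected share of all transcripts scaled to the same total in every sample, and the sequencing depth behind a value is unknown. Transcripts encoded in mitochondrial DNA took 66.2 to 70.4% of TPM in lean, 74.6 to 75.5% in obese and 69.9 to 73.8% in the NAM-treated samples, and every other gene shares what is left. The median of the 10526 genes lay at a log2 change of -0.20 between obese and lean, 0.25 between NAM-treated and obese and 0.05 between NAM-treated and lean samples. Each result is given as deposited and after dividing each sample by its median ratio to the average sample (rescaled), which puts these medians at 0.00, -0.01 and 0.00. All 8 cardiomyocyte markers were found and summed to 16120 to 18700 TPM in lean, 11260 to 12810 in obese and 13760 to 15380 in the NAM-treated samples. In obese against lean hearts 8 of the 8 fell as deposited and 1 fell rescaled, and in NAM-treated against obese hearts 6 and 1 rose. Against lean hearts, 2 fell in NAM-treated hearts as deposited and 3 rescaled. The 2 erythroid markers found summed to 423 to 833 TPM in lean, 906 to 2223 TPM in obese and 302 to 1341 TPM in NAM-treated samples, and neither passed in any comparison. Of 6 fibroblast markers, 1 passed: Pi16 rose in obese against lean hearts as deposited (0.51, adjusted p = 0.0464) and fell in NAM-treated against obese hearts under both scalings (-1.15 and -1.44, adjusted p = 0.00292 and 0.0113). The part of these shifts in the results below was not tested. Atrial markers (4 of 4 found) were high in single libraries: Myl7, an atrial myosin light chain, stood at 99.3 TPM in obese replicate 4 and 192 TPM in NAM-treated replicate 1, with 0.677 to 8.496 TPM in lean samples. Counts without these libraries are given beside the counts with them. Of 6 adipocyte markers 4 were found, with Plin1 and Lep at or near 0, and the 4 summed to 4.61 to 4.93, 4.11 to 7.76 and 3.69 to 7.33 TPM in lean, obese and NAM-treated samples.

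In obese against lean hearts, Decr1, Ech1 and Eci1, which handle unsaturated fatty acids, rose after rescaling, and Acaa2, which ends the mitochondrial cycle, rose with them. Eci3, another enoyl-CoA isomerase, is outside the 31 genes and was not called in that comparison after rescaling. Its means as deposited, a scale on which the median gene fell in obese hearts, were 107, 95.2 and 123 TPM in lean, obese and NAM-treated samples. These means do not give the direction of Eci3 after rescaling. As deposited, Decr1 rose and 9 other genes of the pathway fell, where 16.5% of all genes fell. With NAM, 19 of the 31 genes rose against obese hearts as deposited and 0 did after rescaling, where 28.8% and 0.2% of all genes rose. Against lean hearts, 5 genes rose in NAM-treated hearts under both scalings: Decr1, Ech1, Hadha, Hadhb and Hadh, where 0.865% of all genes rose as deposited and 0.77% rescaled. In bulk tissue, fewer cells of a type and less RNA per cell cannot be told apart.

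**Figure D1:**
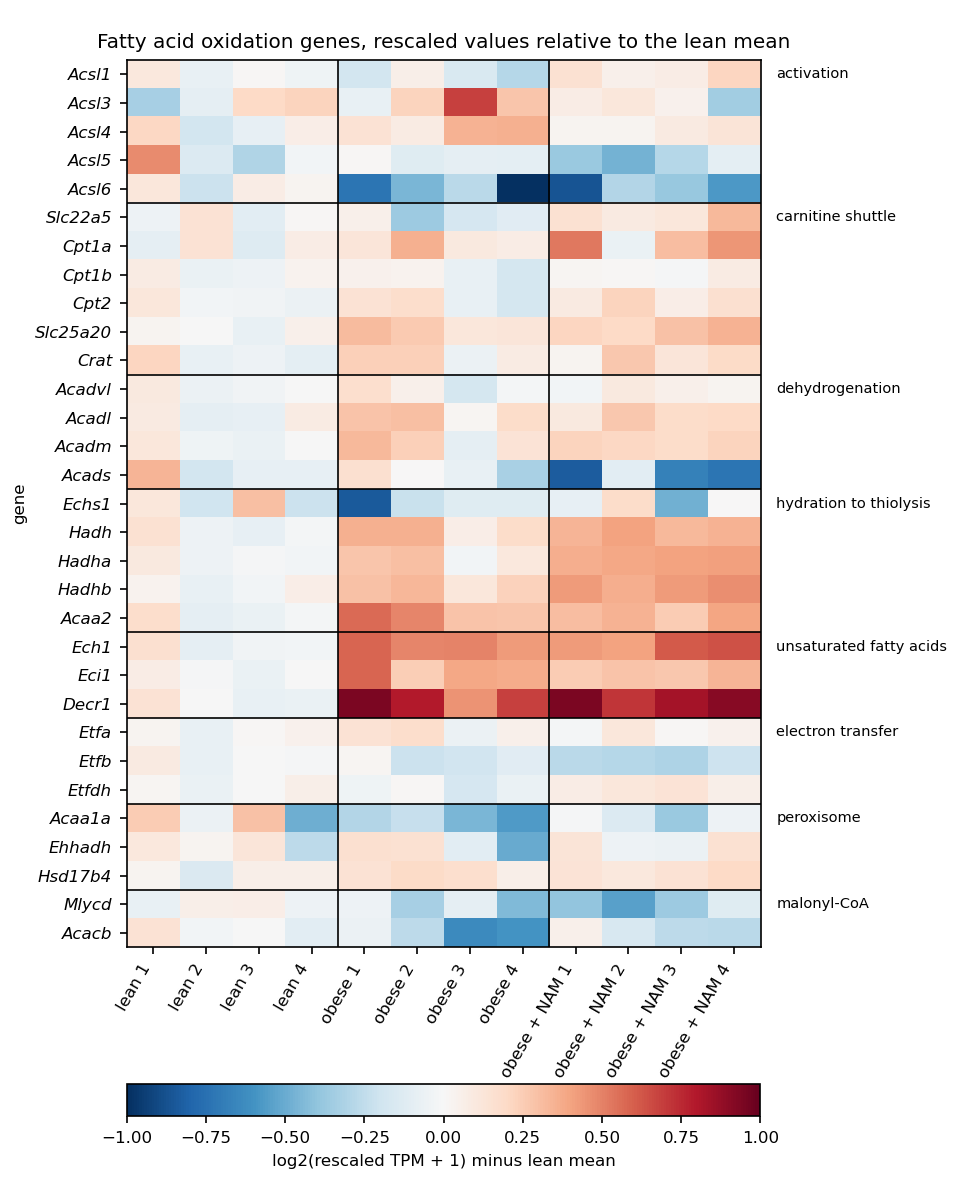
The 31 genes (rows, ordered by step of the pathway) in the 12 samples (columns), as log2(rescaled TPM + 1) minus the mean of the 4 lean samples; red is higher and blue is lower, and colours stop at 1 and -1. Decr1, Ech1, Eci1, Acaa2, Hadh and Hadhb lie above the lean mean in the 4 obese and the 4 NAM-treated samples. The same holds for Acadl, Slc25a20, Hsd17b4 and Acsl4, which were not called after rescaling. Hadha lies above it in the 4 NAM-treated samples and in the obese samples other than replicate 3. Acsl6, Mlycd and Acaa1a lie below the lean mean in all 8.

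Promoter sequence is shown for Hadha and Hadhb, which moved together, and for Eci1, which is among the genes whose window held a receptor motif. The other windows with that motif are named below and not printed. Sequences are from RefSeq windows on GRCr8 that reach from 250 bases before to 50 after a start site. A window was found for 26 of the 31 genes, and not for Acaa2, Acadl, Cpt1b, Decr1 and Ech1. Hadha and Hadhb, the subunits of the mitochondrial trifunctional protein, lie head to head, and the 300 bases between their annotated start sites, chr6:31907501-31907800, are the upstream region of both. Hadha reads from the plus strand printed here and Hadhb from the minus strand. Eci1, an isomerase of unsaturated fatty acids, is shown with the 250 bases before its start, chr10:13961000-13961249 on the plus strand, in which capitals mark AGGTCA, the core motif bound by many nuclear receptors, read on the opposite strand.
between Hadhb and Hadha: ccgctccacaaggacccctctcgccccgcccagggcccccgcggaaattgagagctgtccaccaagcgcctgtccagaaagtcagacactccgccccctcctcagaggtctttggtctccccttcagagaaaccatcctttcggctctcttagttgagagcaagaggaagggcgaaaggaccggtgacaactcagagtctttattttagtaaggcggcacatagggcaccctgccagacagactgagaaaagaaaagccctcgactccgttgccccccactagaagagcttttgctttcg
upstream of Eci1: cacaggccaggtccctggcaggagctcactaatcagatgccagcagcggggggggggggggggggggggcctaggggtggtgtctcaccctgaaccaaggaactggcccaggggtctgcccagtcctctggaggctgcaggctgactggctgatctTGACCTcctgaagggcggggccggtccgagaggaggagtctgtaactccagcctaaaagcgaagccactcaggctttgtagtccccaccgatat
The interval between Hadhb and Hadha holds 57.0% G or C and none of the motifs searched, and the Eci1 stretch holds 64.4% G or C. Searched on both strands, AGGTCA was found in 6 of the 26 windows (23.1%), against 16.2% of 33469 windows of the same length: those of Acacb, Acadvl, Echs1, Eci1, Hadhb and Hsd17b4. In Eci1 it starts 94 bases before the start site. In Hadhb it lies 43 bases into the transcribed side of the window. The relaxed DR1 motif, a direct repeat of that core with a spacer of 1 base known from PPAR response elements, was in 0 of the 26 and 0.415% of all windows. TNAAGGTCA, the extended core motif of estrogen-related receptors, which contains AGGTCA, was in 0 of the 26 and 1.2% of all windows. A match is a description of these letters only.

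The step for unsaturated fatty acids held 3 of the 4 genes called between obese and lean hearts after rescaling. Decr1 (ENSRNOG00000008236.6) encodes the mitochondrial 2,4-dienoyl-CoA reductase, which removes double bonds that the standard cycle cannot pass. In the order of replicates 1 to 4, used throughout, it stood at 131, 112, 108 and 109 TPM in lean, 176, 175, 130.0 and 154 TPM in obese and 245, 178, 218 and 230.5 TPM in NAM-treated samples. All obese values but that of replicate 3 lay above the highest lean value, and the NAM-treated values lay above both other groups without overlap. As deposited, Decr1 rose in obese against lean hearts by a log2 change of 0.46 (SE 0.12, limma adjusted p = 0.0217). Rescaled values were 120.0, 108, 104 and 104 in lean, 209.6, 189, 149 and 176 in obese and 209, 179, 194 and 205 in NAM-treated samples. On that scale every obese sample exceeded every lean sample, the change was 0.72 (SE 0.10, adjusted p = 0.00508), and the gene ranked 16 of 10526 by p.

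Ech1 (ENSRNOG00000020308.6) encodes a dienoyl-CoA isomerase that acts before Decr1 on fatty acids with double bonds at odd positions. Its TPM were 290.4, 229.7, 241 and 243 in lean, 300.1, 309, 294 and 279 in obese and 374, 313, 409 and 415 in NAM-treated samples. Obese replicate 4 lay below lean replicate 1, and the remaining obese samples lay above all lean ones. As deposited the change in obese hearts was 0.24 (adjusted p = 0.109), and rescaled Ech1 rose by 0.50 (SE 0.07, adjusted p = 0.00990), with 223 to 265 in lean and 319 to 357 in obese samples.

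Eci1 (ENSRNOG00000008843.4), the isomerase whose upstream sequence is printed above, moves double bonds into the position the cycle accepts. It stood at 85.3, 75.7, 73.5 and 76.9 TPM in lean, 93.6, 81.3, 84.7 and 83.8 TPM in obese and 104, 89.7, 100.3 and 105 TPM in NAM-treated samples. After rescaling it rose in obese hearts by 0.40 (SE 0.07, adjusted p = 0.0210), from 70.6 to 77.99 in lean to 87.6 to 111 in obese samples, without overlap. The deposited change was 0.14 (adjusted p = 0.235). Acaa2 (ENSRNOG00000013766.7), the mitochondrial thiolase that splits off acetyl-CoA, stood at 458, 360.2, 369 and 383 TPM in lean, 462, 485, 395 and 393 TPM in obese and 539.9, 471, 497 and 548 TPM in NAM-treated samples. Its deposited change in obese hearts was 0.14 (adjusted p = 0.317), while rescaled it rose by 0.40 (SE 0.08, adjusted p = 0.0360).

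These 4 genes were the calls among the 31 in obese against lean hearts after rescaling, 4 higher and 0 lower, where 1.34% of all genes were called, 0.589% higher and 0.751% lower. As deposited, 1 was higher and 9 were lower, against 0.352% and 16.5% of all genes (16.8% in either direction). The share of lower calls as deposited is 9 of 31, and the median change of the 31 genes, -0.18, was near that of all genes, -0.20. Rescaled, the median of the 31 was 0.08 against 0.00. Groups did not overlap for 0 genes higher and 10 lower as deposited, against 0.627% and 23.2% of all genes. Rescaled, they did not overlap for 6 higher and 1 lower, against 4.26% and 5.31% (9.57% in either direction). The rescaled calls of Decr1 and Ech1 stood in all 12 fits that left out 1 sample, those of Eci1 in 8 and of Acaa2 in 4. Eci1 missed the threshold without lean replicates 2, 3 or 4 or obese replicate 4, at most without lean replicate 3 (0.37, adjusted p = 0.0705). Acaa2 kept it without lean replicate 1, obese replicate 3, obese replicate 4 or NAM-treated replicate 3, and its highest adjusted p was 0.0942, without lean replicate 3 (0.38). The 2 counts were 5 and 3 without obese replicate 4, and 9 and 3 without NAM-treated replicate 1.

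**Figure D2:**
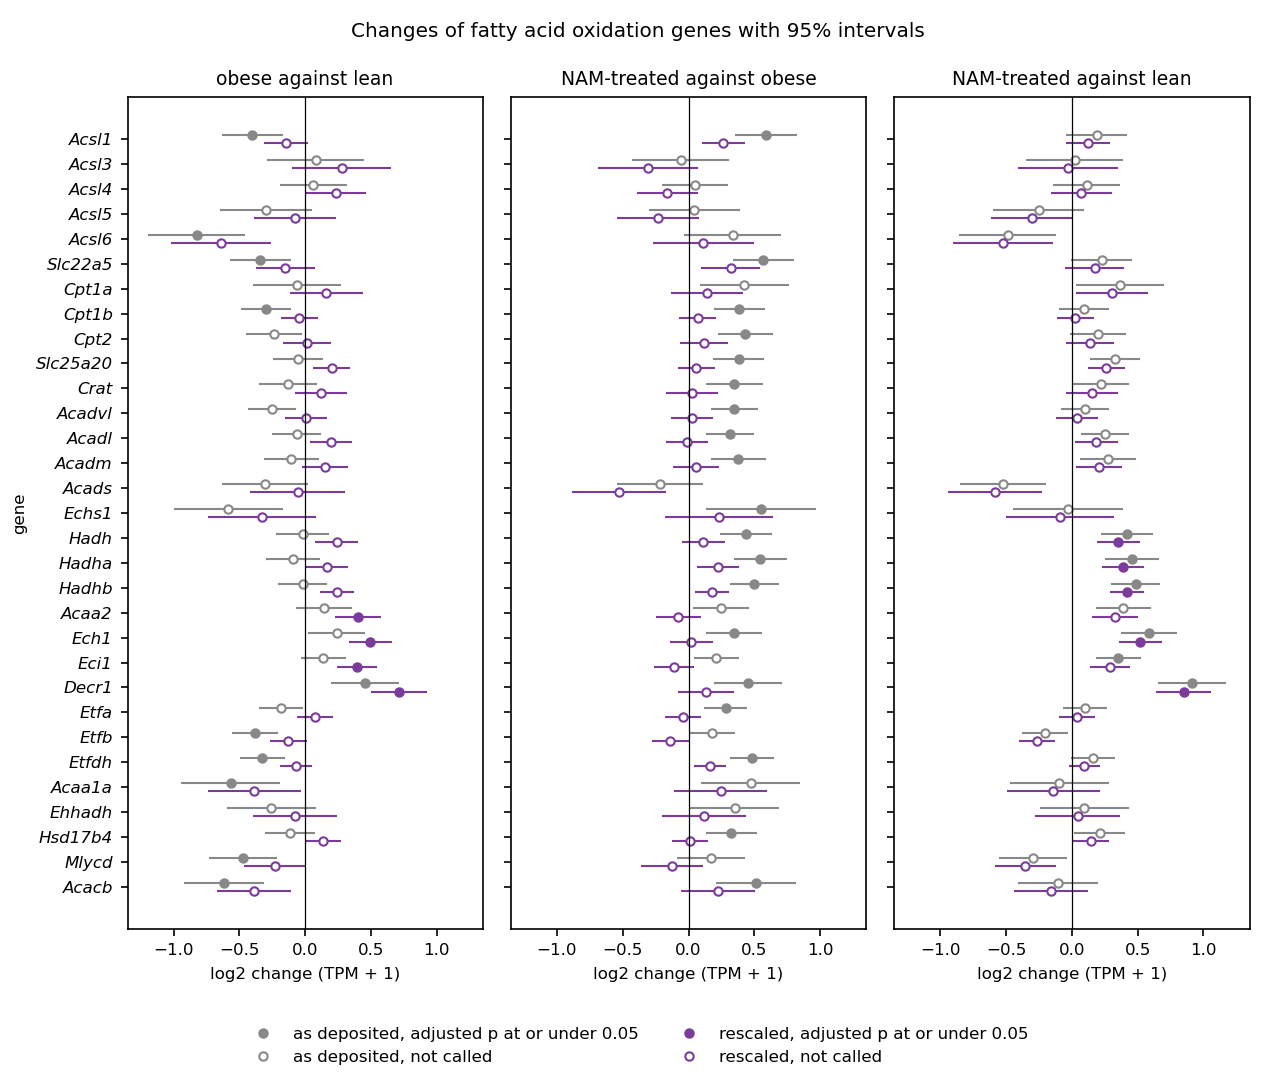
Log2 change of each of the 31 genes (points) with its 95% interval (bars) in the 3 comparisons, as deposited in grey and rescaled in purple; filled points have an adjusted p at or under 0.05. In obese against lean hearts, filled purple points are Decr1 (0.72), Ech1 (0.50), Eci1 (0.40) and Acaa2 (0.40), and against obese hearts no NAM-treated purple point is filled.

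The genes that fell in obese hearts as deposited came from activation, carnitine entry, electron transfer, the peroxisome and malonyl-CoA control. After rescaling, each of these 9 changes was smaller and missed the threshold. Malonyl-CoA control fell as a pair. Acacb encodes the acetyl-CoA carboxylase at the outer mitochondrial membrane, which makes malonyl-CoA. It stood at 11.7, 9.67, 9.91 and 9.18 TPM in lean, 7.69, 7.25, 5.06 and 5.24 TPM in obese and 11.7, 8.40, 8.74 and 8.71 TPM in NAM-treated samples, and all obese samples lay below the others. Its change was -0.62 as deposited (SE 0.14, adjusted p = 0.0117) and -0.39 rescaled (adjusted p = 0.154). Mlycd, the decarboxylase that removes malonyl-CoA, stood at 14.7, 15.3, 15.5 and 14.2 TPM in lean, 11.5, 10.2, 11.6 and 8.92 TPM in obese and 12.4, 9.35, 12.1 and 14.6 TPM in NAM-treated samples. Obese and lean samples did not overlap, with a change of -0.47 as deposited (adjusted p = 0.0197) and -0.23 rescaled (adjusted p = 0.311).

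The ratio of Mlycd to Acacb, which no scaling of a sample can alter, was 1.49 ± 0.151 in lean, 1.72 ± 0.398 in obese and 1.31 ± 0.282 in the NAM-treated samples (mean ± SD, n = 4). The log2 difference was 0.19 between obese and lean samples, -0.40 between NAM-treated and obese samples and -0.20 between NAM-treated and lean samples. The exact 2-sided permutation p-values were 0.400, 0.114 and 0.257, and all 3 pairs of groups overlapped. Adjusted over 9 ratio tests these became 0.514, 0.321 and 0.386, where 4 against 4 samples allow no unadjusted p below 0.0286.

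Activation is the step at which acyl-CoA synthetases commit fatty acids to metabolism. Acsl1, the main isoform of heart, made up 90.1 ± 0.841% of the TPM of the 5 Acsl genes in lean, 89.7 ± 1.32% in obese and 92.5 ± 0.625% in the NAM-treated samples. It stood at 167, 139, 149 and 144 TPM in lean, 105, 137, 111 and 102 TPM in obese and 185, 146, 168 and 185 TPM in NAM-treated samples. All obese samples lay below all lean samples, by a change of -0.40 as deposited (adjusted p = 0.0250) and, with overlap, -0.14 rescaled (adjusted p = 0.386). The call as deposited stood in 7 of the 12 fits without 1 sample.

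Acsl6, an isoform best known from brain, was low in this tissue, at 5.04, 3.56, 4.62 and 4.46 TPM in lean, 1.78, 2.57, 2.87 and 1.24 TPM in obese and 2.16, 3.21, 3.34 and 2.79 TPM in NAM-treated samples. The lean samples lay above all 8 obese and NAM-treated samples. Its change in obese hearts was the lowest of the 31 under both scalings, -0.82 as deposited (SE 0.17, adjusted p = 0.00756) and -0.64 rescaled (adjusted p = 0.0950). In NAM-treated against lean hearts it was -0.49 as deposited (adjusted p = 0.177) and -0.53 rescaled (adjusted p = 0.147).

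Acsl3, Acsl4 and Acsl5, which also serve lipid synthesis, passed in no comparison under either scaling. Acsl3 stood at 2.38, 2.87, 3.75 and 3.85 TPM in lean, 2.37, 3.42, 4.76 and 3.39 TPM in obese and 3.77, 3.32, 3.53 and 2.41 TPM in NAM-treated samples. Acsl4 was at 2.14, 1.29, 1.47 and 1.76 TPM in lean, 1.54, 1.58, 1.98 and 1.99 TPM in obese and 1.89, 1.61, 1.94 and 2.03 TPM in NAM-treated samples. Acsl5 was at 10.6, 6.17, 5.45 and 6.81 TPM in lean, 5.66, 5.63, 5.45 and 5.40 TPM in obese and 5.78, 4.52, 5.95 and 6.93 TPM in NAM-treated samples. All 3 overlapped between every pair of groups, and the high mean of Acsl5 in lean hearts came with lean replicate 1.

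Carnitine entry begins with Slc22a5, the carnitine transporter of the cell membrane. It stood at 3.39, 3.80, 3.07 and 3.43 TPM in lean, 2.87, 2.13, 2.43 and 2.56 TPM in obese and 4.36, 3.501, 4.04 and 4.86 TPM in NAM-treated samples. The obese samples lay below both other groups, with a change against lean of -0.34 as deposited (adjusted p = 0.0461) and -0.15 rescaled (adjusted p = 0.523).

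Carnitine palmitoyltransferase 1, the step that malonyl-CoA inhibits, has a muscle isoform, Cpt1b, and a liver isoform, Cpt1a, which is less sensitive to malonyl-CoA. Cpt1b stood at 69.0, 58.6, 59.96 and 63.6 TPM in lean, 51.6, 56.7, 49.5 and 46.1 TPM in obese and 70.8, 59.8, 66.2 and 70.9 TPM in NAM-treated samples. Again the obese samples lay below both other groups, and the change against lean was -0.30 as deposited (adjusted p = 0.0363) and -0.04 rescaled (adjusted p = 0.808). Cpt1a was at 6.004, 6.86, 5.52 and 6.56 TPM in lean, 5.48, 7.27, 5.61 and 5.49 TPM in obese and 10.5, 5.57, 8.496 and 9.43 TPM in NAM-treated samples. Of these NAM-treated samples 3 lay above all other samples and replicate 2 lay among them.

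Cpt1a made up 9.07 ± 1.10% of Cpt1a plus Cpt1b TPM in lean, 10.5 ± 0.741% in obese and 11.1 ± 1.86% in the NAM-treated samples. As a log2 ratio of Cpt1a to Cpt1b, the difference was 0.23 between obese and lean samples, 0.09 between treated and untreated obese samples and 0.32 between treated and lean samples. No exact permutation p passed (0.114, 0.571 and 0.114, adjusted 0.321, 0.571 and 0.321), and the groups overlapped. Cpt2, the inner-membrane partner that rebuilds acyl-CoA, stood at 47.5, 40.6, 40.7 and 40.2 TPM in lean, 37.4, 42.0, 33.3 and 30.9 TPM in obese and 50.03, 46.7, 47.1 and 50.3 TPM in NAM-treated samples. Obese and lean samples overlapped (change -0.24, adjusted p = 0.109, rescaled 0.02). Slc25a20, the carnitine-acylcarnitine carrier, and Crat, which buffers acetyl-CoA as acetylcarnitine, did not pass against lean hearts in either obese group. Rescaled, Slc25a20 was 0.20 in obese (adjusted p = 0.140) and 0.26 in NAM-treated hearts (adjusted p = 0.0592), without overlap with lean samples in either.

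**Figure D3:**
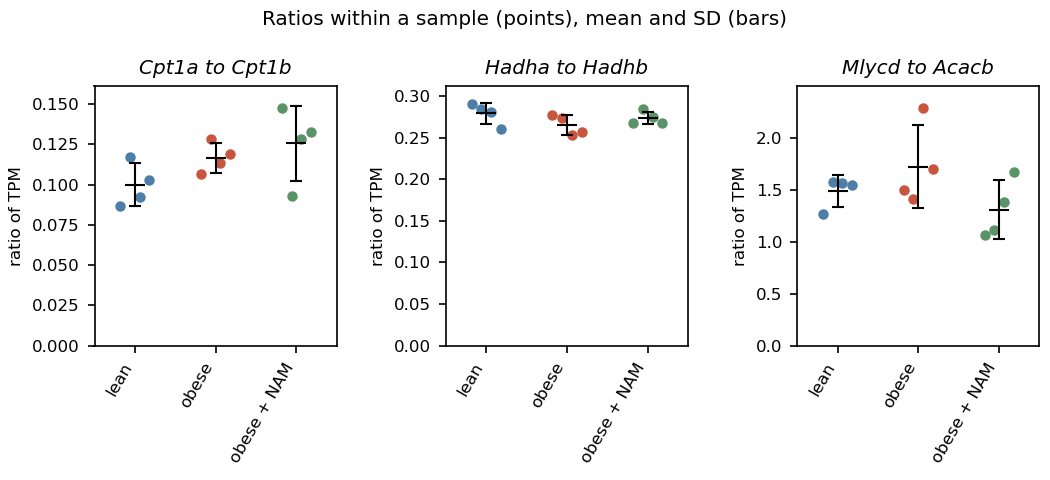
Ratios of TPM of paired genes within a sample (points), with the mean and SD of each group of 4 (bars): the liver to the muscle form of carnitine palmitoyltransferase 1, the alpha to the beta subunit of the trifunctional protein, and malonyl-CoA decarboxylase to acetyl-CoA carboxylase 2. The groups overlap in every panel, and no exact permutation test passed after adjustment (lowest adjusted p 0.321).

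Electron transfer flavoprotein, made of Etfa and Etfb, takes electrons from the acyl-CoA dehydrogenases and hands them to its oxidoreductase Etfdh. Etfb stood at 144, 121, 129 and 128 TPM in lean, 106, 98.6, 94.5 and 99.8 TPM in obese and 120.2, 101, 112 and 120.5 TPM in NAM-treated samples. Both obese groups lay below the lean samples without overlap. The change in obese hearts was -0.38 as deposited (SE 0.08, adjusted p = 0.00858, kept in all 12 fits without 1 sample) and -0.13 rescaled (adjusted p = 0.359). Rescaled against lean, NAM-treated hearts stood at -0.27 (adjusted p = 0.0553). Etfdh stood at 140.1, 124, 131 and 138 TPM in lean, 103, 118, 98.5 and 106 TPM in obese and 156, 136, 156 and 148 TPM in NAM-treated samples. Obese samples were lowest, with a change against lean of -0.32 as deposited (adjusted p = 0.0151) and -0.07 rescaled (adjusted p = 0.603). Etfa, the partner of Etfb, was at -0.18 and 0.08 (adjusted p = 0.117 and 0.589), so the changes of the subunits were unequal as values, a difference that was not tested.

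The acyl-CoA dehydrogenases start each round and differ in the chain length they take. Acadl, the long-chain enzyme of rodents, had the highest TPM of the 31 genes, 582 to 847 over all samples, followed by Hadhb and Acadm. Acadvl, Acadl, Acadm and Acads, for very long, long, medium and short chains, did not pass between obese and lean hearts under either scaling. As deposited their changes ran from -0.31 for Acads to -0.06 for Acadl, and rescaled from -0.06 for Acads to 0.20 for Acadl. Acads was the gene of this step with the lowest values in NAM-treated hearts, 16.97 to 24.5 TPM against 24.0 to 37.1 TPM in lean and 18.4 to 25.1 TPM in obese samples. Against lean, its change there was -0.53 as deposited (adjusted p = 0.108) and -0.58 rescaled (adjusted p = 0.0877), with overlap in both.

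Peroxisomal oxidation has its own bifunctional enzymes, Ehhadh and Hsd17b4, and its own thiolase, Acaa1a. Acaa1a was low, at 4.22, 2.99, 4.16 and 1.99 TPM in lean, 1.95, 2.29, 1.72 and 1.53 TPM in obese and 3.57, 2.69, 2.41 and 3.29 TPM in NAM-treated samples. Lean replicate 4 lay among the obese samples and the other 3 above them, and the fall of 0.57 on the log2 scale as deposited (change -0.57, adjusted p = 0.0402) became -0.39 rescaled (adjusted p = 0.253). Ehhadh, which was as low as Acaa1a (1.38 to 3.51 TPM), and Hsd17b4 (35.7 to 50.8 TPM) did not pass between obese and lean hearts.

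**Figure D4:**
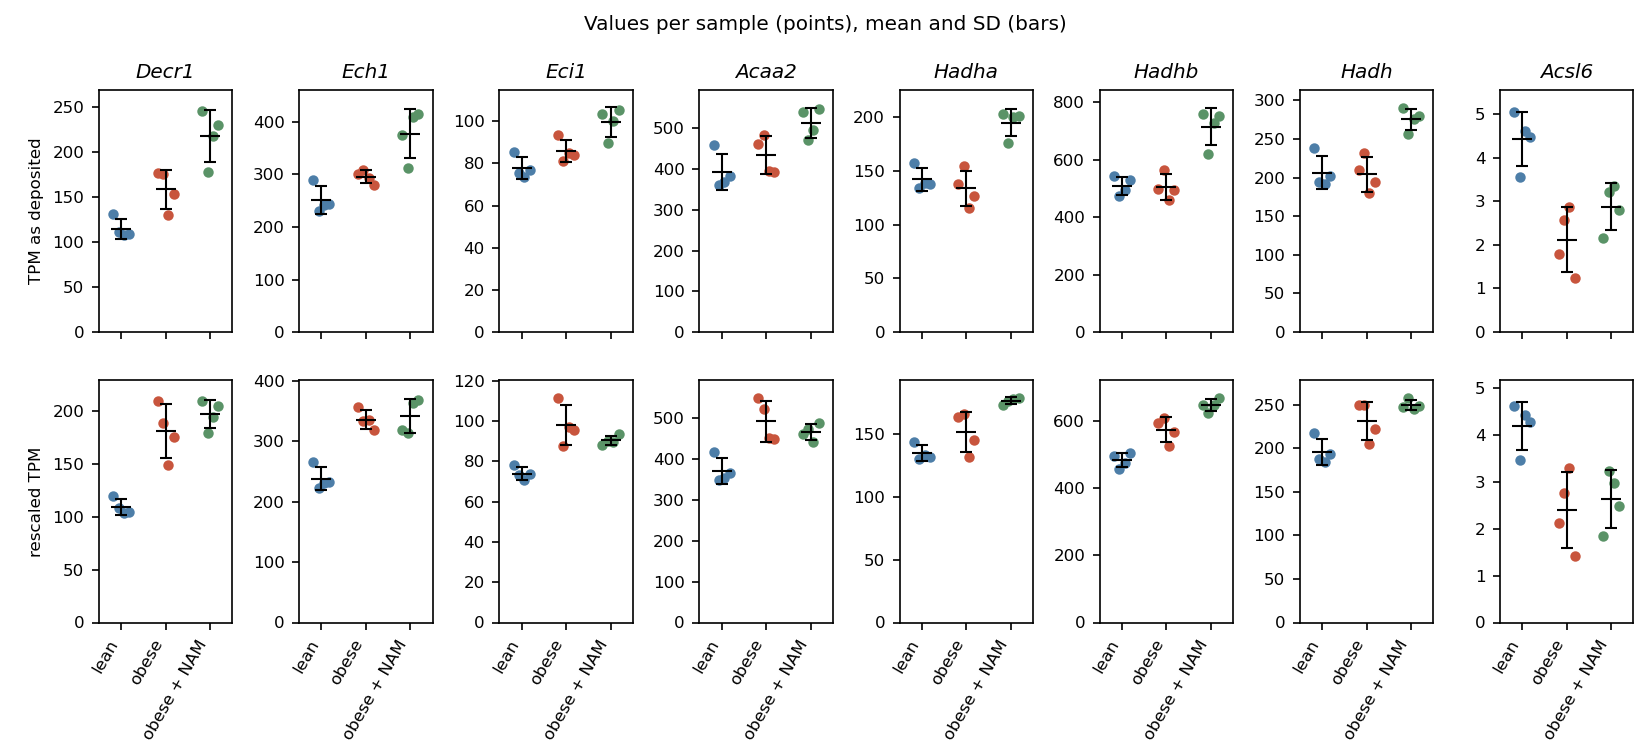
TPM of 8 genes in each sample (points), as deposited above and rescaled below, with the mean and SD of each group of 4 (bars). Rescaled Decr1 lies at 104 to 120.0 in lean, 149 to 209.6 in obese and 179 to 209 in the NAM-treated samples, and Hadha at 129.9 to 144, 132 to 166 and 173 to 179.

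The comparison closest to NAM itself sets treated beside untreated obese hearts. The age of the untreated rats was not stated, so treatment and age cannot be told apart. As deposited, 19 of the 31 genes rose and 0 fell, where 28.8% of all genes rose and 0.466% fell (29.2% in either direction). The median change of the 31 was 0.35 against 0.25 for all genes. After rescaling, limma called 0 of the 31, where 0.713% of all genes were called (0.2% higher and 0.513% lower), and the medians were 0.06 and -0.01. Of the 31, 6 had an unadjusted p under 0.05 rescaled, and eBayes without trend and robust also called 0. Those 6 genes ranked from 361 (Acsl1) to 720 (Etfdh) of all 10526 genes by p, and Etfb, the next of the 31, ranked 1671. The share of all genes under that unadjusted threshold is not given here, so the count of 6 is a description only. Groups did not overlap for 19 higher genes as deposited, against 28% of all genes. Rescaled, they did not overlap for 4 higher genes (Slc22a5, Hadha, Hadhb and Etfdh) and 0 lower, against 4.87% and 4.3%. The counts were 14 and 0 without obese replicate 4, and 14 and 0 without NAM-treated replicate 1. This comparison shares its obese samples with the one above, so a gene that happened to be low in them would appear in both.

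Rises as deposited were found in every step. Acsl1 of the activation step rose by 0.59 (SE 0.11, adjusted p = 0.00422) and was the gene with the lowest adjusted p rescaled, 0.128 for a change of 0.27 (95% interval 0.10 to 0.43). In carnitine entry 5 of 6 genes rose, led by Slc22a5 (0.57, adjusted p = 0.00432), Cpt2 (0.43, 0.00795) and Cpt1b (0.39, 0.00832). Cpt1a was at 0.42 (adjusted p = 0.0554). Acadm, Acadvl and Acadl rose by 0.38, 0.35 and 0.31, while Acads was at -0.22 (adjusted p = 0.289). The next enzymes of the cycle, Hadha (0.55), Echs1 (0.55), Hadhb (0.50) and Hadh (0.44), rose, with adjusted p from 0.00346 to 0.0476. Of the step for unsaturated fatty acids, Decr1 (0.46) and Ech1 (0.35) rose, and Eci1 was at 0.21 (adjusted p = 0.0597). Etfdh rose by 0.48 with the lowest adjusted p of the 31, 0.00305, and Etfa rose by 0.28. Acacb (0.51, adjusted p = 0.0178) and Hsd17b4 (0.33, adjusted p = 0.0181) rose, whereas Mlycd was at 0.17 (adjusted p = 0.290).

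Echs1, the short-chain enoyl-CoA hydratase, varied more within groups than the neighbouring enzymes. It stood at 153, 116, 166 and 116 TPM in lean, 60.1, 102, 104 and 104 TPM in obese and 143, 145, 104 and 145 TPM in NAM-treated samples. Its call as deposited stood in 2 of the 12 fits without 1 sample, and NAM-treated replicate 3 lay among the obese samples. Rescaled, the changes of the 31 genes between NAM-treated and obese hearts ran from -0.53 for Acads (adjusted p = 0.155) to 0.32 for Slc22a5 (adjusted p = 0.165). Decr1, the gene that stood out in obese hearts, was at 0.13 (95% interval -0.08 to 0.34, adjusted p = 0.554), Ech1 at 0.02 (-0.14 to 0.18, adjusted p = 0.920) and Eci1 at -0.11 (-0.26 to 0.04, adjusted p = 0.493). A value that misses the threshold does not show that the groups were alike.

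From hydration to thiolysis, 3 of 5 genes rose in NAM-treated against lean hearts under both scalings: Hadha, Hadhb and Hadh. Echs1 stood at -0.03 as deposited and -0.09 rescaled (adjusted p = 0.962 and 0.853). Hadha and Hadhb encode the alpha and beta subunits of the trifunctional protein, which hydrates, dehydrogenates and cleaves long chains at the inner membrane, and share the upstream interval printed above. Hadha (ENSRNOG00000024629.6) stood at 158, 134, 139 and 138 TPM in lean, 138, 154, 116 and 127 TPM in obese and 203, 176, 200.0 and 201 TPM in NAM-treated samples. Hadhb (ENSRNOG00000010800.6) stood at 542, 472, 494 and 528 TPM in lean, 497.7, 565, 458 and 496 TPM in obese and 758, 619, 727 and 751 TPM in NAM-treated samples. As deposited, lean and obese samples overlapped for both subunits and the NAM-treated samples lay above them all. Rescaled, untreated obese samples also lay above lean ones for Hadhb, without overlap (0.24, adjusted p = 0.0649), and the changes of Hadha and Hadh there were 0.17 and 0.24 (adjusted p = 0.282 and 0.131), with overlap. Hadha rose against lean by 0.46 as deposited (SE 0.09, adjusted p = 0.0300) and 0.39 rescaled (SE 0.07, adjusted p = 0.0181). Hadhb rose by 0.48 (SE 0.09, adjusted p = 0.0140) and 0.42 (SE 0.06, adjusted p = 0.00431).

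The ratio of Hadha to Hadhb was 0.279 ± 0.0128 in lean, 0.265 ± 0.0121 in obese and 0.274 ± 0.00769 in the NAM-treated samples (mean ± SD, n = 4). Its log2 difference was -0.08 between obese and lean samples, 0.05 between treated and untreated obese samples and -0.03 between treated and lean samples (exact permutation p = 0.143, 0.257 and 0.571, adjusted 0.321, 0.386 and 0.571). Hadh (ENSRNOG00000010697.2), the hydroxyacyl-CoA dehydrogenase for shorter chains, stood at 238, 194, 192 and 202 TPM in lean, 210.1, 232, 179.6 and 195 TPM in obese and 290.1, 257, 276 and 279.5 TPM in NAM-treated samples. It rose in NAM-treated against lean hearts by 0.42 as deposited (SE 0.09, adjusted p = 0.0410) and 0.35 rescaled (SE 0.07, adjusted p = 0.0320), without overlap. Its rescaled call ended without lean replicates 2, 3 or 4 and without each of the NAM-treated samples (adjusted p up to 0.0840, without lean replicate 2), so it stood in 5 of 12 fits. Without NAM-treated replicate 1, which holds atrial transcripts, the change was 0.36.

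Decr1 rose in NAM-treated against lean hearts by 0.91 as deposited (SE 0.12, adjusted p = 0.00266) and 0.85 rescaled (SE 0.10, adjusted p = 0.00167), where it ranked 8 of 10526 by p. Ech1 rose by 0.58 (SE 0.10, adjusted p = 0.0115) and 0.52 (SE 0.07, adjusted p = 0.00504). Eci1 rose by 0.35 as deposited (adjusted p = 0.0427) and stood at 0.29 rescaled (adjusted p = 0.0579), and Acaa2 was at 0.39 and 0.33 (adjusted p = 0.0649 and 0.0578). For all 4 genes, no NAM-treated sample overlapped a lean sample under either scaling.

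Together, 6 of the 31 genes were higher and 0 lower as deposited, against 0.865% and 0.969% of all genes (1.83% in either direction), and 5 and 0 rescaled, against 0.77% and 1.59%. The medians of the 31 were 0.19 as deposited and 0.12 rescaled, beside 0.05 and 0.00 for all genes. Groups did not overlap for 9 higher and 2 lower genes as deposited (6.94% and 3.81% of all genes) and for 11 and 3 rescaled (5.84% and 6.35%). Calls of Decr1 and Ech1 stood in all 12 fits without 1 sample under both scalings. As deposited, those of Hadhb, Hadha, Hadh and Eci1 stood in 9, 6, 4 and 3 of the 12 fits. Rescaled, those of Hadhb, Hadha and Hadh stood in 12, 8 and 5. The counts were 4 and 5 without obese replicate 4, and 3 and 4 without NAM-treated replicate 1. This comparison shares its lean samples with that of obese against lean and its treated samples with that of NAM-treated against obese hearts.

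The makeup of the pathway does not depend on the scaling of a sample, since each gene is taken as a share of the TPM of the 31. Decr1, Ech1 and Eci1 together took 10.6 ± 0.267% in lean, 13.5 ± 0.603% in obese and 13.3 ± 0.733% in the NAM-treated samples (mean ± SD, n = 4), with 10.3 to 10.9% in lean and 12.3 to 13.97% in the other 8 samples. Electron transfer took 12.7 ± 0.377%, 11.1 ± 0.209% and 10.6 ± 0.205%, and the lean samples (12.2 to 13.1%) again lay apart from the rest (10.4 to 11.3%). Hydration to thiolysis, the step of Hadha, Hadhb, Hadh, Echs1 and Acaa2, took 33.0 ± 0.416%, 34.1 ± 0.489% and 35.2 ± 0.494%. Malonyl-CoA control took 0.598 ± 0.0415%, 0.421 ± 0.0497% and 0.411 ± 0.0302%. Activation took 3.96 ± 0.0934%, 3.15 ± 0.310% and 3.54 ± 0.149%, and the carnitine shuttle 6.30 ± 0.131%, 5.86 ± 0.152% and 5.94 ± 0.0774%. For malonyl-CoA control, activation and the carnitine shuttle too, every lean sample lay above the other 8 samples. The shares of the steps make up a fixed total, so they do not move independently. Dehydrogenation held 31.7 ± 0.635%, 30.9 ± 0.993% and 29.9 ± 0.700%, and the 3 peroxisomal genes 1.13 ± 0.0677%, 1.05 ± 0.0769% and 1.04 ± 0.0281%. As a share of the TPM of genes outside mitochondrial DNA, all 31 took 1.36 ± 0.0369% in lean, 1.61 ± 0.150% in obese and 1.82 ± 0.0286% in the NAM-treated samples. These shares are descriptions with no test.

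**Figure D5:**
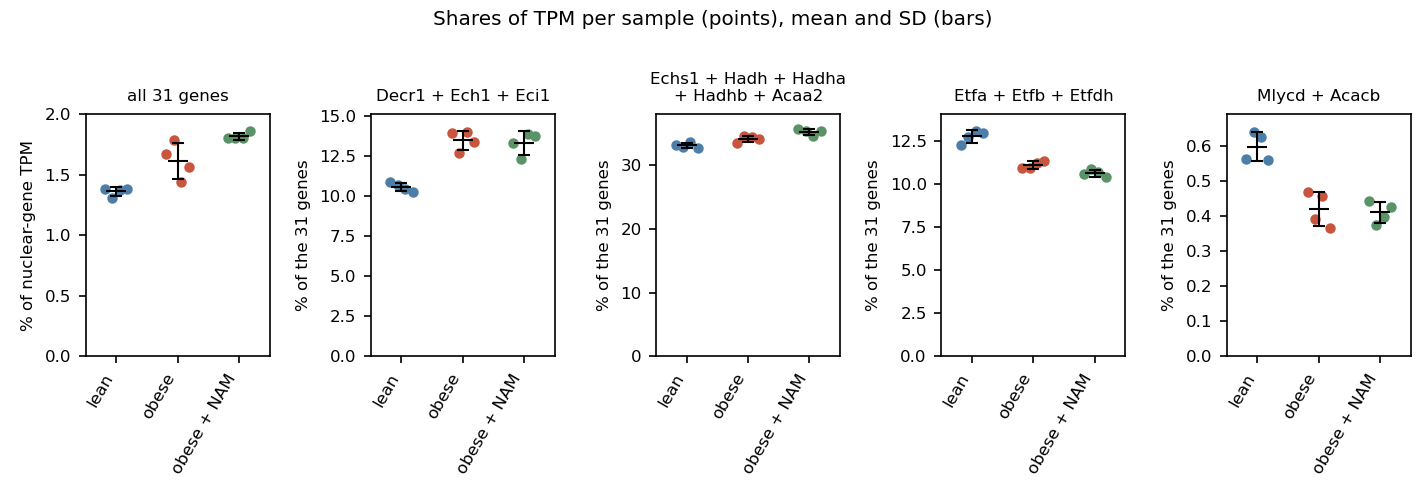
Shares of TPM in each sample (points) with the mean and SD of each group of 4 (bars): all 31 genes as a percentage of TPM outside mitochondrial DNA, and 4 steps as a percentage of the TPM of the 31 genes. The step of Decr1, Ech1 and Eci1 lies at 10.3 to 10.9% in lean and 12.3 to 13.97% in the other 8 samples, and Mlycd plus Acacb is highest in lean samples.

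The 31 genes also differed in how much they varied between samples of a group. Rescaled, the median coefficient of variation of the 31 genes was 7.04% in lean, 10.3% in obese and 5.36% in the NAM-treated samples. It was not computed over all genes, so these values do not show a trait of the 31 genes. Hadha and Acadm varied by 1.48% and 1.45% in NAM-treated samples and by 10.6% and 12.1% in obese samples. The highest values were those of Acsl6 in obese (33.8%), Acaa1a in lean (30.6%) and Acads in NAM-treated samples (26.2%).

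Other genes around the pathway were taken from lists chosen with earlier results of these data known. Beside the counts below, 16.5% of all genes fell in obese against lean hearts as deposited and 0.751% rescaled. In NAM-treated against obese hearts, 28.8% of all genes rose as deposited and 0.2% rescaled. Against lean hearts, 0.865% rose in NAM-treated hearts as deposited and 0.77% rescaled. Of 18 further genes of peroxisomal oxidation, 13 could be tested: 4 fell in obese against lean hearts as deposited and 0 rescaled, 8 and 0 rose in NAM-treated against obese hearts, and 0 passed against lean. Those that fell were Acox2, Abcd3, Pecr and Phyh (-0.52, -0.40, -0.38 and -0.34), and the rises with NAM included Pecr (0.57) and Abcd3 (0.46). Of 17 further mitochondrial acyl-CoA and carnitine genes, 11 were tested. Acot2, a mitochondrial thioesterase that frees fatty acids from CoA, rose in obese against lean hearts rescaled (0.50, adjusted p = 0.0253) and in NAM-treated against lean hearts under both scalings (0.81 and 0.74, adjusted p = 0.00243 and 0.00209). It stood at 43.2 ± 5.02, 51.5 ± 6.76 and 76.2 ± 2.36 TPM in lean, obese and NAM-treated samples. The other calls of this list were as deposited only: 4 fell in obese hearts, among them Acss1 (-0.67) and Acot13 (-0.49), and 8 rose with NAM, led by Acss1 (0.59), Tmlhe (0.57) and Acot2 (0.57).

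Of 12 other genes listed under malonyl-CoA control, among them subunits of AMP-activated kinase, which phosphorylates acetyl-CoA carboxylases, 10 were tested. In obese against lean hearts 4 fell as deposited, where 16.5% of all genes fell. Rescaled, Prkaa2, a catalytic subunit, fell (-0.65, adjusted p = 0.00842) and Prkag2, a regulatory subunit, rose (0.43, adjusted p = 0.0458). With NAM against obese hearts 8 rose as deposited, where 28.8% of all genes rose, and rescaled 1 rose, Prkaa2 (0.52, adjusted p = 0.0345). Against lean hearts, Prkag2 rose in NAM-treated hearts under both scalings (0.72 and 0.65, adjusted p = 0.00516 and 0.00441). Of 14 other targets of PPAR alpha, the fatty acid sensor, 10 were tested. Lpl, the lipase that frees fatty acids from lipoproteins, fell in obese hearts under both scalings (-0.80 and -0.54, adjusted p = 0.00246 and 0.0375) and rose with NAM as deposited (0.62, adjusted p = 0.00477, rescaled 0.29, adjusted p = 0.214). Fabp3, the fatty acid binding protein of heart, fell in obese hearts and rose with NAM as deposited (-0.35 and 0.32).

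Ppara itself stood at 6.99, 8.41, 8.59 and 9.27 TPM in lean, 3.81, 4.68, 4.34 and 5.34 TPM in obese and 8.45, 8.18, 8.45 and 7.46 TPM in NAM-treated samples. The obese samples lay below both other groups. The change in obese against lean hearts was -0.75 as deposited (SE 0.11, adjusted p = 0.00189) and -0.53 rescaled (adjusted p = 0.0392). It rose with NAM by 0.73 as deposited (adjusted p = 0.00292), and rescaled the change was 0.45 (adjusted p = 0.0914).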

How the data were processed

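RNA of 12 rat heart samples, 4 per group, was sequenced by the authors. The deposited table holds TPM per gene (strand-specific libraries, per the labels' protocols), made against Rnor_6.0 per the submitters' processing notes, which also name limma without a version. The sources used here give neither the aligner nor the quantifier. The NAM-treated columns are TPM too, but in 498 of 17602 rows hold a text mark in place of a number, and these rows were left out. Other values in those columns were used as deposited by the authors. TPM keeps no depth, so the spread within groups sets the precision, and counting error at low values is unknown.

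A gene was kept at 1 TPM or more in 4 or more samples. Then log2(TPM + 1) was fitted in R 4.3.3 with limma 3.58.1 (3 group means over 12 samples, leaving 9 residual degrees of freedom; moderation by eBayes used the trend and robust options and statmod 1.5.0), 2-sided, with Benjamini-Hochberg adjustment over the 10526 genes of each comparison and a threshold of 0.05. Changes are on the log2(TPM + 1) scale, which understates those of low genes. Every adjusted p of a gene is from limma. For rescaling, a size factor per sample was taken as the median, over kept genes, of the ratio to each gene's geometric mean, and TPM were divided by it. The 9 ratio tests were exact permutation tests over samples. Fits were tested on simulated data.

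The genes, lists and tests were chosen with earlier results of these data known. Values per sample are given for called genes (at most 10 per comparison, by size of change), both Cpt1 genes, the 5 Acsl genes, the genes of the 3 ratios and Ppara, and up to 4 called genes per other list and comparison are named. Some results of these lists are not reported here. Promoter windows are from RefSeq on GRCr8, matched by symbol. Across genes, r lay between 0.954 and 0.968 within groups and between 0.941 and 0.964 across groups, and 0 of 66 pairs were identical. Alternatives were other pseudocounts (0.1 and 5), no filter, a mean of at least 5 TPM, only the 8 samples compared, eBayes without trend and robust, a replicate block, TPM without mitochondrially encoded genes, and each sample left out.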

Additional observations from a re-analysis of the deposited data

Results flagged for a closer look

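In 11 of 93 groups of 4 samples (31 genes in 3 groups), 1 sample lay far from the other 3 by Dixon's criterion; chance gives this in about 1 in 20 groups. Lean replicate 1 was high for Cpt2 (47.5 TPM, others 40.2 to 40.7), Crat (88.5 TPM, others 67.9 to 70.02), Acads (37.1 TPM, others 24.0 to 26.2) and Decr1 (131 TPM, others 108 to 112), and it had the lowest share of mitochondrially encoded TPM of all samples (66.2%). Lean replicate 2 was low for Hsd17b4 (36.4 TPM, others 42.6 to 43.7).

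Obese replicate 1 was low for Echs1 (60.1 TPM, others 102 to 104), and obese replicate 2 was high for Cpt1a (7.27 TPM, others 5.48 to 5.61). In NAM-treated samples, replicate 2 was high for Acads (24.5 TPM, others 16.97 to 18.2) and low for Hadha (176 TPM, others 200.0 to 203), replicate 3 was low for Echs1 (104 TPM, others 143 to 145), and replicate 1 was high for Acacb (11.7 TPM, others 8.40 to 8.74). The part of depth or library preparation in these values was not tested.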

How the results depend on the processing

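The scaling decided most counts of the 31 genes as deposited. For obese against lean, 10 calls (1 higher and 9 lower) became 4 under rescaling and 4 in TPM recomputed without mitochondrially encoded genes. Both sets of 4 were 4 higher and 0 lower, and 1 of the 10, Decr1, kept its call in each. For NAM-treated against obese, 19 became 0 and 3, and for NAM-treated against lean, 6 became 5 and 12. Calls over all genes moved with them, from 1770 to 141 and 62, from 3077 to 75 and 208, and from 193 to 248 and 569. Acadl (-0.0093) and Etfa (-0.0413) changed sign between NAM-treated and obese hearts under rescaling, as did Cpt1b between obese and lean hearts in TPM without mitochondrially encoded genes (0.0036). NAM-treated against lean as deposited gave 3 without a filter and 3 with eBayes without trend and robust. Rescaled, that comparison gave 9 instead of 5 with a mean of at least 5 TPM and 8 with only the 8 samples compared, which gave 2 instead of 4 for obese against lean. The cause of these differences was not tested.

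With 1 sample left out, the counts ranged from 5 to 12 (as deposited) and 2 to 5 (rescaled) for obese against lean, from 14 to 22 and 0 to 1 for NAM-treated against obese (1, Acsl1, without obese replicate 2), and from 2 to 8 and 3 to 9 for NAM-treated against lean. Replicate numbers are not stated to pair samples. Deviations of same-numbered samples from their group means, taken over the kept genes, correlated with r from -0.05 to 0.074. With the number as a replicate block the counts were 6, 18 and 4 as deposited and 4, 0 and 5 rescaled. Among values of single called genes under an alternative, 713 kept direction and call, 186 lost the call and 3 changed sign. Unknown depth limits what can be said of genes of a few TPM, such as Acsl4, Acaa1a and Ehhadh.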
